A study of Homo sapiens with 12 samples.

Results

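The EGF receptor family and its ligands were followed as 10 genes, taken by gene name from the 60504 genes listed in the deposited tables, and all 10 were listed. They are the receptors EGFR, ERBB2 and ERBB3 and the ligand genes EGF, TGFA, AREG, HBEGF, BTC, EREG and NRG1. Transcript levels are given in TPM (transcripts per 1000000), which scale each gene by its length and each library to the same total. The 12 RNA sequencing libraries form 2 arms and were all made from T24, a cell line established from a human bladder carcinoma. In the knockout arm, 2 libraries labelled knockout U11 stood against 2 untreated controls. In the overexpression arm, 6 libraries labelled overexpression U11 stood against 2 untreated controls. These 6 libraries carry the line labels 79, 86 and 87 in their titles, with 2 libraries for each, and the sources used here do not say what the numbers stand for. Per the study's methods, the knockout cells were a CRISPR/Cas9 clone made with a pair of guide RNAs, and the overexpressing cells were clones grown out after transfection with a U11 plasmid. Libraries of 1 clone share whatever is particular to that clone, and the labels do not say whether replicates were separate cultures, so the P values measure the spread between these libraries only.

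EGF family ligands are made as membrane-anchored precursors, and metalloproteases such as ADAM17 release the active part. A bound ligand brings receptors together in pairs, which switches on the RAS-ERK and PI3K-AKT pathways. ERBB2 has no known ligand of its own and acts as the partner of other receptors, and ERBB3 signals mainly through such partners because its own kinase is weak. U11 is a small nuclear RNA of the minor spliceosome, which removes the rare U12-type introns.

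U11 itself was examined first, as the sum of its 2 entries in the tables. In the knockout arm the controls held 21.4 and 23.8 TPM of it and the libraries labelled knockout 31.6 and 37.4 TPM, so its level went against the label, and these are called knockout-labelled libraries throughout. In the overexpression arm, U11 was at 0.03 and 0.62 TPM in the controls, 0.18 and 0.41 TPM in line 79, 3.98 and 3.72 TPM in line 86, and 61.9 and 53.6 TPM in line 87. Line 79 was thus within the range of its controls. The values of line 79 and the controls were all below 1 TPM, so they cannot show whether line 79 held more U11. By real-time PCR, the paper reported U11 significantly lower in its knockout line and significantly higher in its overexpressing line than in wild-type T24. Why these TPM differ from that measure was not tested. The labels give poly(A) RNA and the study's methods ribosomal RNA depletion, and how well U11 is captured by either was not tested. The 2 arms also differed in kind. The genes of the histone clusters took 27661.8 to 34278.5 TPM of the knockout arm libraries but 103.4 to 179.8 TPM of the others. Levels were therefore compared within an arm, apart from an alternative with the controls of both arms and the ligand shares. Aligned bases per library lay between 9.07 and 15.33 gigabases. The labelled cell type was checked on marker genes. The 7 epithelial markers, most of them keratins, summed to at least 1817.3 TPM in every library. CDH1 and KRT5 were below 1 TPM and EPCAM was at 0.0904 to 2.32 TPM. The 4 mesenchymal markers summed to 2339.8 to 5939.7 TPM, above the epithelial sum in every knockout arm library and below it in the others. Of 7 markers of differentiated urothelium, 4 were below 1 TPM in every library. Of 5 leukocyte markers, 4 were below 1 TPM in every library, and the list summed to 1.2 to 7.7 TPM.

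EGFR and ERBB2 were the most abundant receptor transcripts. EGFR, the receptor of most of these ligands, lies at chr7:55019021-55256620 (hg38, plus strand), and ERBB2 at chr17:39687914-39730426 (hg38, plus strand). ERBB3 (chr12:56079857-56103505, plus strand) stayed between 1.51 and 5.16 TPM, at most 4.2% of the summed receptor TPM. HBEGF was the most abundant ligand transcript in 10 of the 12 libraries and TGFA in the 2 knockout-labelled libraries (26.6 TPM against 21.9 TPM, and 23.5 TPM against 21.4 TPM). EGF, the ligand that names the family, stayed below 1 TPM in every library, and BTC, which encodes betacellulin, stayed below 2 TPM.

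**Figure D1:**
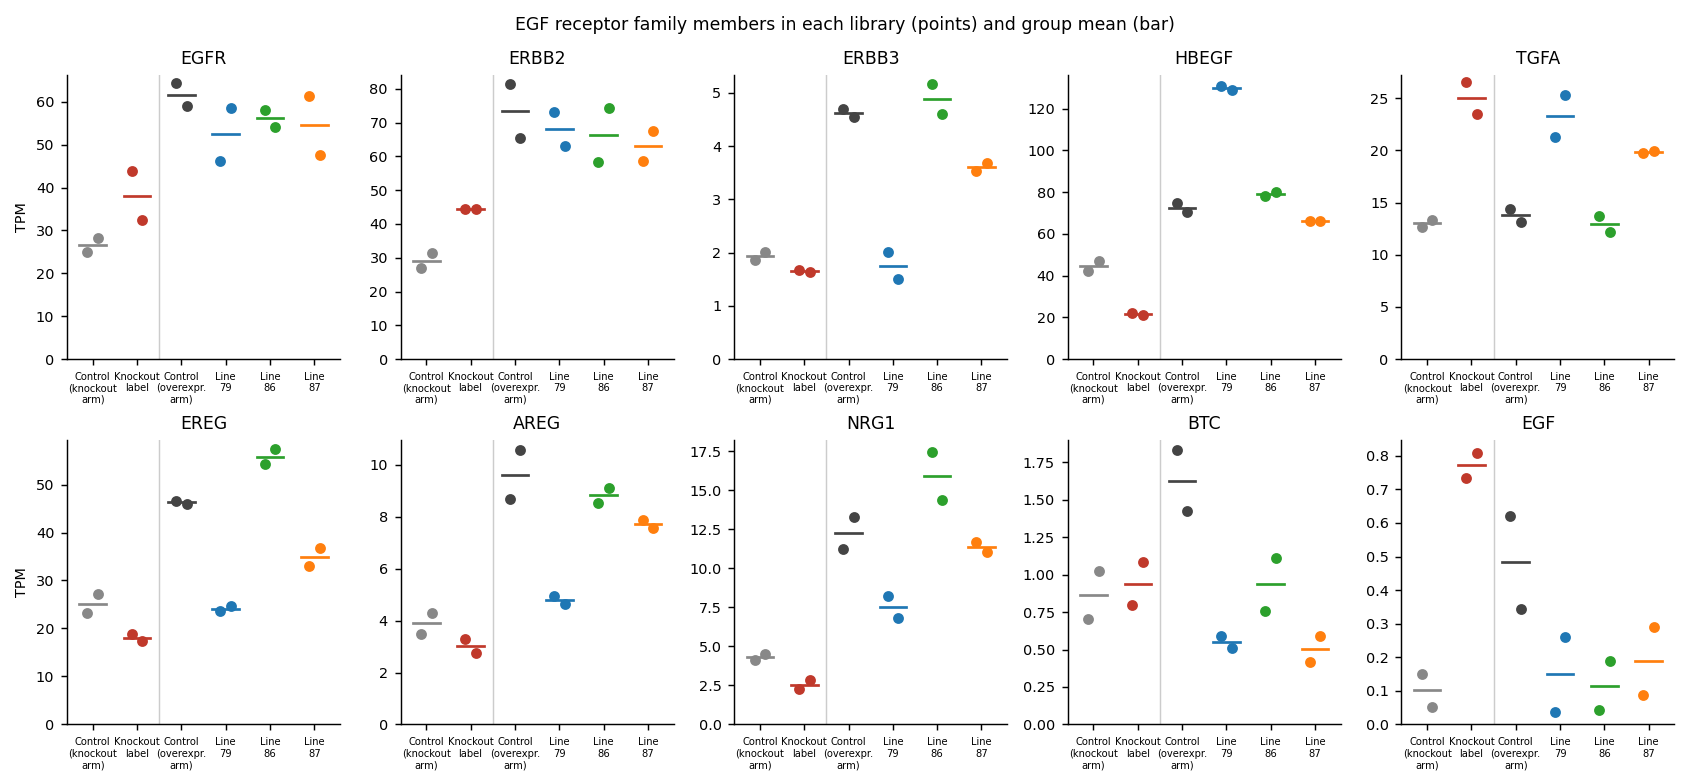
TPM (vertical axes, each from 0) of the 10 members in each library (points) and the mean of the 2 libraries of each group (bars), with the knockout arm left and the overexpression arm right of the grey line. HBEGF was highest in line 79 (131 and 129 TPM) and, within its arm, lowest in the knockout-labelled libraries (21.9 and 21.4 TPM), while EREG, AREG and ERBB3 were lowest of the overexpression arm in line 79.

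The start regions of 4 ligand genes called in line 79 are printed here. AREG and EREG lie near each other and moved down in that line, while HBEGF and TGFA moved up. In the knockout comparison HBEGF fell (-1.01) and TGFA rose (0.89) on the log2 scale. BTC and NRG1 were also called down in line 79 and are not printed. AREG (amphiregulin) and EREG (epiregulin) lie near each other on chromosome 4 (hg38), at chr4:74445134-74455009 and chr4:74365143-74388751, both on the plus strand and 56382 bases apart. BTC lies 289749 bases beyond AREG, on the minus strand. HBEGF is at chr5:140332843-140346631 and TGFA at chr2:70447280-70554193, both on the minus strand. Each sequence is the RefSeq window of 300 bases around the start of transcription (GRCh38.p14), running 5′ to 3′ on the gene's own strand. The windows are AREG at chr4:74444886-74445185, EREG at chr4:74364895-74365194, HBEGF at chr5:140346554-140346853 and TGFA at chr2:70553777-70554076, the nearer of 2 TGFA windows, whose start is 367 bases from the gene's start in the tables. Capitals mark, on either strand, the letters of 5 motifs. These are TGACGTCA for CRE (the cyclic AMP response element) and TGANTCA for AP-1. The TEAD motif was GGAATG, the TATA box TATAAA and the SP1 motif GGGCGG. No match overlapped one of another motif in these windows, and 2 SP1 matches of HBEGF shared 1 base.
AREG: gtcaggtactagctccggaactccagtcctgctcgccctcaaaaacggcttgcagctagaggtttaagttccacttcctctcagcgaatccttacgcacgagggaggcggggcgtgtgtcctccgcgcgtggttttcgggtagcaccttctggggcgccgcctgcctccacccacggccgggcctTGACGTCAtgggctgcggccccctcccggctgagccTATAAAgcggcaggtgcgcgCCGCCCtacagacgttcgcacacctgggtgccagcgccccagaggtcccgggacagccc
EREG: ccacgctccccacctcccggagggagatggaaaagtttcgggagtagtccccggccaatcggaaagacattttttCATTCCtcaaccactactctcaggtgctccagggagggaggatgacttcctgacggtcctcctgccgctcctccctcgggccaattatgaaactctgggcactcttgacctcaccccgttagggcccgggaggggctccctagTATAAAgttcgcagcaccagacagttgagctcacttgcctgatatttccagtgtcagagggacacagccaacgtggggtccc
HBEGF: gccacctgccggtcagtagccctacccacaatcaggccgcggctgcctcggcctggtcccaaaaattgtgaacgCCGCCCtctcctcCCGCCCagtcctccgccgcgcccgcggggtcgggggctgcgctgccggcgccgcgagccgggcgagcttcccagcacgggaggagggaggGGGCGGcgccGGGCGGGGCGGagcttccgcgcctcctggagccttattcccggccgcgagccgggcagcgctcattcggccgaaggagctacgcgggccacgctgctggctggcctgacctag
TGFA: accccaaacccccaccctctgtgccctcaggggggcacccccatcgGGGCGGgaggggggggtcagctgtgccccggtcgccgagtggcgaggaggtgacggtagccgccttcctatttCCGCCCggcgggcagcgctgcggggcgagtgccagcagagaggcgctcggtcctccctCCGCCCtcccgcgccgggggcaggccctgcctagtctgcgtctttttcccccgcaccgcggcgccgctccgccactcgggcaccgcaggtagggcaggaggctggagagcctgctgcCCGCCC
The AREG window held 1 CRE match, which begins 65 bases upstream of the start, 1 TATA match at 29 bases and 1 SP1 match at 9 bases. The EREG window held a TATA match at 32 bases, a TEAD match at 175 bases and no SP1 match. HBEGF and TGFA held neither a CRE, an AP-1, a TEAD nor a TATA match, but 5 and 4 SP1 matches. The BTC window held 1 SP1 match and no match of the other motifs. Of the 35116 windows in the table, 1.8% held the CRE letters, 11.5% the TATA letters, 14.0% the TEAD letters, 7.7% the AP-1 letters and 45.0% the SP1 letters. The matches describe the letters only, and no link between a motif and the direction of change was tested.

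The introns of the members were also read from GENCODE release 44. Among their 218 introns of at least 60 bases, none began with ATATCCTT or GTATCCTT, the letters used here for a U12-type start, and 1.61% of the genes with such introns (631 of 39107) had at least 1.

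The knockout comparison asked which members differed between the 2 knockout-labelled libraries and the 2 controls of their arm. TGFA and ERBB2 were up-regulated, and HBEGF and NRG1 were down-regulated, out of 9 members tested. A gene was tested where 2 or more libraries of the arm reached 1 TPM, with limma on log2(TPM + 1). It was called where the unadjusted P was under 0.05 and the change was 1.5-fold or more, the thresholds of the study. Folds are on the log2(TPM + 1) scale and understate the change of low genes. Groups of 2 libraries can separate readily by chance, and the share of all genes without overlap is not given. Overlap, or its lack, is therefore description only. Over all 14356 genes tested, 8.61% were called up and 3.15% down. With an adjusted P under 0.05 in place of the unadjusted one, these shares were 4.78% and 2.08%, and NRG1 was no longer called. The median log2 fold change of the 9 members was -0.15, beside 0.108 over all genes tested, a shift that became -0.018 after median ratio scaling.

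Among the receptors, ERBB2 was at 26.9 and 31.3 TPM in the controls, against 44.5 and 44.5 TPM in the knockout-labelled libraries. The log2 fold change of ERBB2 was 0.60 ± 0.11 (SE, adjusted P = 0.0467). The fold was near its threshold, while the unadjusted P was 0.00338. The call was lost as the fold fell under median ratio scaling (0.45), with FPKM (0.50) and without control replicate 1 (0.49). In this arm, leaving out 1 library leaves 1 in its group, which is then assumed to vary like the other group. ERBB2 shares 3′ sequence with MIEN1 on the opposite strand (11.1 to 58.7 TPM over the libraries), and the sources used here do not say that strand was used in counting. EGFR was at 24.9 and 28.2 TPM in the controls, against 43.9 and 32.4 TPM in the knockout-labelled libraries, which lay far apart (0.49 ± 0.17, adjusted P = 0.144). Without knockout-labelled replicate 2, the lower of the pair, EGFR passed both thresholds (0.71), but that fit rests on 1 knockout-labelled library and takes its spread from the controls. ERBB3 was at 1.87 and 2.01 TPM against 1.68 and 1.63 TPM, with a 95% confidence interval of -0.46 to 0.17 for its log2 fold change.

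Of the ligands that bind EGFR alone, TGFA (transforming growth factor alpha) was at 12.7 and 13.4 TPM in the controls, against 26.6 and 23.5 TPM in the knockout-labelled libraries. It rose by 0.89 ± 0.11 on the log2 scale (SE, adjusted P = 0.0243), a fold change of 1.85. AREG was at 3.48 and 4.30 TPM against 3.31 and 2.77 TPM (-0.27 ± 0.15, adjusted P = 0.297). EGF fell under the minimum and was not tested. It was at 0.151 and 0.053 TPM in the controls and 0.734 and 0.809 TPM in the knockout-labelled libraries. In a fit with no filter its log2 fold change was 0.69 ± 0.12 (adjusted P = 0.141).

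Of the ligands that also bind ERBB4, HBEGF (heparin-binding EGF-like growth factor) changed most. It was at 42.3 and 47.2 TPM in the controls, against 21.9 and 21.4 TPM in the knockout-labelled libraries. Its log2 fold change was -1.01 ± 0.10 (SE, adjusted P = 0.018). EREG was at 23.1 and 27.3 TPM against 18.8 and 17.4 TPM, and its change (-0.45 ± 0.13, adjusted P = 0.0946) was below 1.5-fold. With median ratio scaling it was called, at -0.60 (adjusted P = 0.0349). BTC was at 0.706 and 1.03 TPM against 0.796 and 1.08 TPM, so that the groups overlapped.

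NRG1, which encodes the neuregulin that binds ERBB3 and ERBB4, was at 4.13 and 4.54 TPM in the controls, against 2.25 and 2.86 TPM in the knockout-labelled libraries. Its log2 fold change was -0.59 ± 0.15 (SE, adjusted P = 0.0792), and the call was lost without control replicate 2 (-0.53) or without knockout-labelled replicate 1 (-0.46). Other markers moved in the same comparison: 3 of 4 mesenchymal markers were called up (FN1 by 1.68, VIM by 0.76 and ZEB1 by 0.59 on the log2 scale), and their summed TPM went from 2339.8 and 2379.3 to 5939.7 and 4926.3. The summed TPM of 7 epithelial markers was 2177.2 and 2047.5 in the controls and 2091.9 and 1817.3 in the knockout-labelled libraries, with KRT19 at -0.74 and 3 of the 4 tested not called. Of 3 tested urothelial markers, FOXA1 was called down (-0.89, adjusted P = 0.0342) and GATA3 up (0.75), the latter not with adjusted P (0.0553). The part of these markers in the results was not tested.

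**Figure D2:**
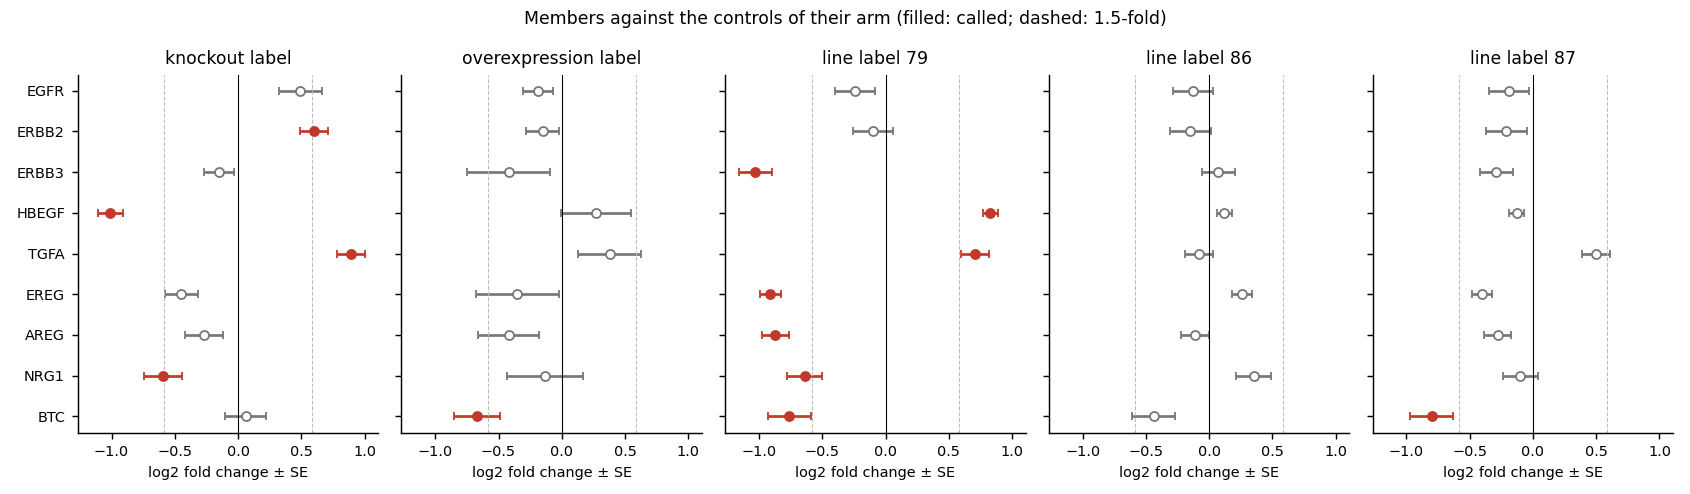
Log2 fold change ± SE of the 9 tested members against the 2 controls of their arm, from limma on log2(TPM + 1). Filled points were called (unadjusted P under 0.05 and at least 1.5-fold, dashed lines): 4 for the knockout label, 1 for the overexpression label, 7 for line label 79, none for 86 and 1 for 87.

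The overexpression comparison set all 6 overexpression-labelled libraries against the 2 controls of that arm. Of 9 members tested, 1 was called, BTC, which was lower. Over all 15768 genes tested, 0.767% were called up and 1.16% down. BTC was at 1.83 and 1.43 TPM in the controls and between 0.414 and 1.11 TPM in the 6 libraries (median 0.590 TPM), without overlap. Its log2 fold change was -0.67 ± 0.18 (SE) with an adjusted P of 0.47. The call was lost without control replicate 3 (-0.56) and with FPKM (-0.38). It was also lost with the controls of both arms (-0.42), whose libraries differ in kind. BTC was thus called only before adjustment and at a level near the minimum of the filter, which it passed through its controls. The other 8 members had adjusted P values of 0.898 to 0.972, and for HBEGF, TGFA, EREG, AREG, ERBB3 and NRG1 the 6 libraries differed by line label.

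The same 8 libraries were therefore described by line label, in 1 fit with 4 groups of 2 libraries. The 3 line comparisons share the same 2 controls. In line 79, 7 of 9 members were called, 2 up (HBEGF and TGFA) and 5 down (ERBB3, EREG, AREG, BTC and NRG1), and all 7 kept an adjusted P under 0.05. BTC was below 1 TPM in lines 79 and 87 and passed the minimum through its controls, so its calls there are description only. Over all 15768 genes tested, 2.43% were called up and 5.52% down in line 79 (1.64% and 3.99% with adjusted P). The median log2 fold change of the members was -0.64, beside -0.030 over all genes. In line 86 no member was called (1.59% of all genes up and 2.01% down), and the lowest adjusted P of a member was 0.214 (EREG). In line 87 BTC alone was called, at -0.80 ± 0.17 (SE, adjusted P = 0.0612), where 2.08% of all genes were called up and 3.05% down.

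The 2 abundant receptors showed no call in any line. EGFR was at 64.4 and 59.0 TPM in the controls, 46.1 and 58.6 TPM in line 79, 58.1 and 54.2 TPM in line 86, and 61.3 and 47.6 TPM in line 87. ERBB2 was at 81.5 and 65.5 TPM in the controls, 73.2 and 63.1 TPM in line 79, 58.4 and 74.3 TPM in line 86, and 58.8 and 67.6 TPM in line 87. The values of ERBB2 overlapped the controls in all 3 lines and those of EGFR in line 87 alone. In line 79 the 95% confidence interval of the log2 fold change was -0.61 to 0.13 for EGFR and -0.49 to 0.29 for ERBB2. ERBB3 differed: it was at 4.69 and 4.54 TPM in the controls, 2.002 and 1.51 TPM in line 79, 5.16 and 4.60 TPM in line 86, and 3.53 and 3.68 TPM in line 87. Its fall in line 79 was -1.03 ± 0.13 (SE, adjusted P = 0.00611).

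HBEGF was at 74.7 and 70.6 TPM in the controls and rose to 131 and 129 TPM in line 79. It was at 78.0 and 80.3 TPM in line 86 and at 66.0 and 66.2 TPM in line 87. The log2 fold change in line 79 was 0.83 ± 0.06 (SE, adjusted P = 0.00101), whereas line 86 (0.12 ± 0.06) and line 87 (-0.13 ± 0.06) were not called. TGFA was at 14.4 and 13.2 TPM in the controls, 21.3 and 25.3 TPM in line 79, 13.7 and 12.2 TPM in line 86, and 19.8 and 19.9 TPM in line 87. Both line 79 and line 87 lay above both controls. The log2 fold change was 0.71 ± 0.11 in line 79 (SE, adjusted P = 0.0127) and 0.50 ± 0.11 in line 87 (adjusted P = 0.0721), the latter below 1.5-fold.

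EREG and AREG, which lie near each other on chromosome 4, fell in line 79. EREG was at 46.6 and 46.0 TPM in the controls, 23.6 and 24.7 TPM in line 79, 54.4 and 57.3 TPM in line 86, and 33.0 and 36.7 TPM in line 87. None of the 4 groups overlapped. The log2 fold change was -0.91 ± 0.08 in line 79 (SE, adjusted P = 0.0018), 0.26 ± 0.08 in line 86 (adjusted P = 0.214) and -0.40 ± 0.08 in line 87 (adjusted P = 0.0506). AREG was at 8.68 and 10.6 TPM in the controls, against 4.95 and 4.63 TPM in line 79, while line 86 (8.54 and 9.12 TPM) and line 87 (7.89 and 7.55 TPM) were nearer the controls. Its log2 fold change in line 79 was -0.87 ± 0.11 (SE, adjusted P = 0.00735). EPGN, which lies 49835 bases from EREG on its other side, did not pass the minimum in either arm.

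BTC, further along chromosome 4, was at 0.587 and 0.510 TPM in line 79, 0.759 and 1.11 TPM in line 86, and 0.414 and 0.593 TPM in line 87, all below the controls. It was called in line 79 (-0.76 ± 0.17, SE, adjusted P = 0.0406), but not with FPKM (-0.43). NRG1 was at 11.2 and 13.3 TPM in the controls, 8.20 and 6.81 TPM in line 79, 17.5 and 14.4 TPM in line 86, and 11.7 and 11.04 TPM in line 87. Its log2 fold change in line 79 was -0.64 ± 0.14 (SE, adjusted P = 0.0382). The NRG1 call was lost with FPKM (-0.55), without control replicate 4 (-0.53) and without line 79 replicate 3 (-0.52). EGF was at 0.620 and 0.345 TPM in the controls and between 0.038 and 0.289 TPM in the 6 other libraries of the arm. It fell under the minimum. In a fit with no filter its log2 fold change for the overexpression label was -0.36 ± 0.11 (SE, adjusted P = 0.592).

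The difference between the 3 line labels was tested itself, with the F test of limma in the same fit. It was called for 6 of 9 members, HBEGF, EREG, ERBB3, TGFA, NRG1 and AREG, beside 14.6% of all genes (10.8% with adjusted P), and not for EGFR, ERBB2 and BTC. In pairs of lines, HBEGF in line 79 was 0.71 above line 86 (adjusted P = 0.00173) and 0.96 above line 87 (adjusted P = 0.000569) on the log2 scale, while lines 86 and 87 differed by 0.26 (adjusted P = 0.069). EREG was ordered line 86, line 87, line 79, and each step passed the test, 0.67 between 86 and 87 (adjusted P = 0.00751) and -0.51 between 79 and 87 (adjusted P = 0.0113). TGFA was higher in line 79 than in line 86 by 0.80 (adjusted P = 0.00721), and lines 79 and 87 did not differ beyond their spread (0.22, adjusted P = 0.294). ERBB3 and AREG were lower in line 79 than in line 86 (-1.10 and -0.76) and in line 87 (-0.74 and -0.59), with adjusted P values of 0.00423 to 0.0238. NRG1 was lower in line 79 than in line 86 by -0.99 (adjusted P = 0.0077), and its difference from line 87 (-0.54) had an adjusted P of 0.0618.

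The replicates of the overexpression arm came from 2 series of library numbers, each with 1 library of every line and 1 control. The leukocyte markers CD3E and PTPRC, though below 1 TPM, differed by series. They were at 0.502 to 0.915 and 0.265 to 0.496 TPM in the series of control replicate 4. In the series of control replicate 3 they were at most 0.0516 and 0.0132 TPM. The line 79 values had the same sign in both series for all members tested. For EGFR (-0.47 and -0.01) and ERBB2 (-0.15 and -0.05) the difference was near none in at least 1 series. HBEGF was 0.80 and 0.86 above the control of its series on the log2 scale, TGFA 0.54 and 0.89, EREG -0.95 and -0.87, ERBB3 -0.92 and -1.14, AREG -0.70 and -1.04, NRG1 -0.41 and -0.87, and BTC -0.83 and -0.68. Markers also differed between the line labels by the same F test: FN1 (adjusted P = 0.000724), ZEB1 and GATA3 (0.0135 each), KRT19 (0.0101), FOXA1 (0.0447) and CDH5 (0.000204). GATA3 was lower in line 87 (-1.12, adjusted P = 0.0158), as was FN1 (-0.86, adjusted P = 0.000883), and ZEB1 was higher in line 86 (0.83, adjusted P = 0.0484). Among the markers tested, line 79 had a call for CDH5 alone. CDH5, a cadherin of endothelial cells, was at 34.1 and 32.2 TPM there, against 3.43 and 3.08 TPM in the controls and 4.17 to 5.28 TPM in lines 86 and 87. The other 3 of 4 endothelial markers, PECAM1, VWF and KDR, were below 1 TPM in every library. In the knockout arm CDH5 went from 4.85 and 4.75 TPM in the controls to 0.0316 and 0.0293 TPM. The part of these markers in the results was not tested.

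The make-up of the ligand transcripts was taken as the share of each in the summed TPM of the 7 ligands. HBEGF made up 45.4% to 48.8% of the sum in the 4 controls of both arms. It made up 69.0% and 67.4% in line 79 but 29.5% and 30.7% in the knockout-labelled libraries. TGFA made up 35.7% and 33.7% in the knockout-labelled libraries, against 14.7% and 13.7% in their controls. EREG made up 12.5% and 12.9% in line 79, against 29.5% and 29.6% in the controls, and 31.4% and 32.8% in line 86. The sum itself was 189.7 and 191.0 TPM in line 79, against 158.0 and 155.4 TPM in the controls, and 74.3 and 69.8 TPM in the knockout-labelled libraries, against 86.6 and 97.8 TPM.

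**Figure D3:**
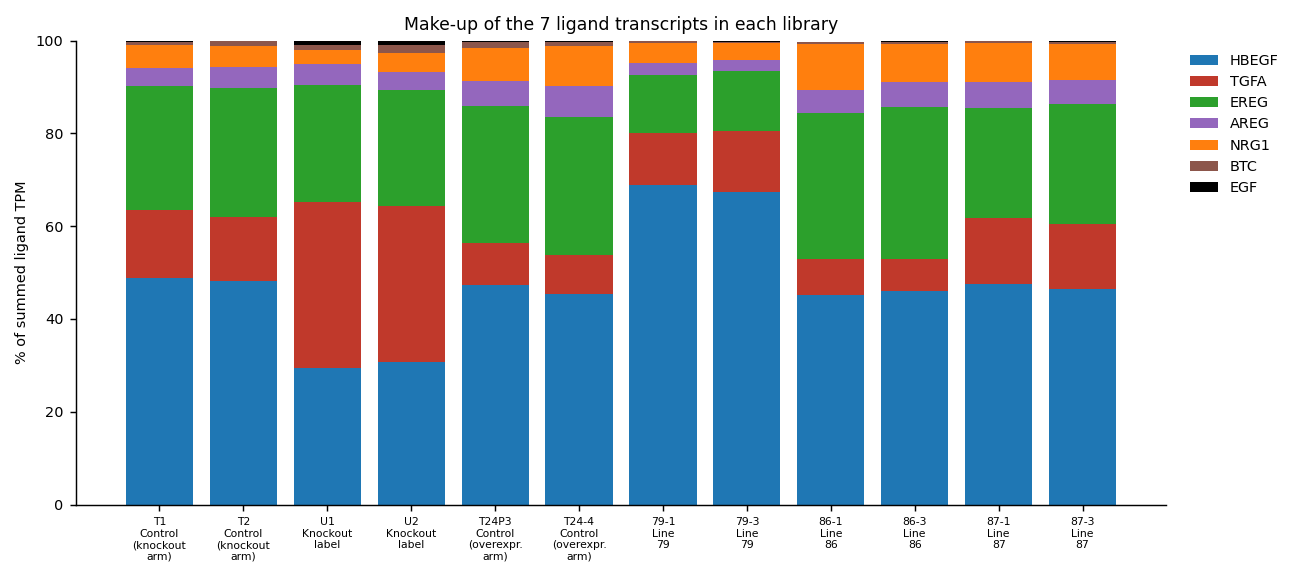
Share of each of the 7 ligands in their summed TPM (vertical axis, %) in each of the 12 libraries, named by label and ordered by group. HBEGF (blue) fills 67.4% or more in line 79 and 30.7% or less in the knockout-labelled libraries, where TGFA (red) fills 33.7% or more.

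The other genes of the pathway were taken from 5 lists. Of the 5 further receptors and ligands, ERBB4, EPGN, NRG3 and NRG4 did not pass the minimum in either arm. NRG2, a second neuregulin, was at 5.88 and 6.03 TPM in the controls, 1.24 and 1.12 TPM in line 79, 7.09 and 6.67 TPM in line 86, and 4.33 and 3.96 TPM in line 87. It fell in line 79 by -1.67 ± 0.10 on the log2 scale (SE, adjusted P = 0.000491), more than any of the 9 members tested. Of 7 genes for ligand shedding none was called in the knockout comparison, the overexpression comparison or any line against the controls. The F test between line labels did call ADAM10 (adjusted P = 0.0107), with means of 33 TPM in line 86, 24.2 TPM in line 79 and 21.3 TPM in line 87. Of the lists, that test also called NRG2, PIK3CA, DUSP4, DUSP5, SPRED2, ETV4 and ETV5. ADAM17, the main protease for TGFA, AREG and HBEGF, changed by 0.14 with the knockout label (adjusted P = 0.431) and by -0.06 in line 79 (adjusted P = 0.771).

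Of 12 adaptors and first effectors, SOS2 was called up (0.62, adjusted P = 0.0538) and GRB2 down (-0.85, adjusted P = 0.159) with the knockout label, neither of them with adjusted P. SOS2 is an exchange factor for RAS, and GRB2 the adaptor that carries such factors to the receptor. GRB2 was at 27.3 and 53.0 TPM in the 2 controls, far apart, and at 19.3 and 22.2 TPM in the knockout-labelled libraries. In line 86 PIK3CA, the catalytic subunit of PI3-kinase, was called up (0.68, adjusted P = 0.0351).

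Of 11 tested genes that down-regulate the receptors, LRIG1 was called down and CBLB up with the knockout label. LRIG1, a membrane protein that promotes the breakdown of these receptors, was at 2.14 and 2.61 TPM in the controls, against 0.677 and 0.554 TPM in the knockout-labelled libraries (-1.06 ± 0.14, SE, adjusted P = 0.0252). LRIG1 passed the minimum only through the controls, where it was higher, so its call is description only. CBLB, a ubiquitin ligase, was at 2.19 and 2.26 TPM against 4.99 and 3.96 TPM (adjusted P = 0.0502). In line 79, RNF41, a ubiquitin ligase for ERBB3, was called down (-0.77, adjusted P = 0.058).

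Of 15 genes that follow ERK activity, 2 were called up with the knockout label and none down. EGR1, an immediate early transcription factor, was at 0.795 and 0.991 TPM in the controls, against 2.32 and 2.75 TPM in the knockout-labelled libraries (0.90 ± 0.14, SE, adjusted P = 0.0339). It passed the minimum only through the knockout-labelled libraries, where it was higher, so its call is description only. SPRED2, an inhibitor of the ERK pathway, rose by 0.92 ± 0.14 (SE, adjusted P = 0.032). The median of the 15 was 0.20, beside 0.108 over all genes. MYC, a transcription factor of the list, split by replicate number and not by label, at 33.8 TPM in control replicate 1 and 24.1 TPM in knockout-labelled replicate 1 but 0.966 and 1.95 TPM in the replicates numbered 2. In line 79, DUSP5, a phosphatase for ERK, was called down, from 25.0 and 23.3 TPM in the controls to 13.8 and 12.9 TPM (-0.81 ± 0.09, SE, adjusted P = 0.00339), and the median was -0.34, beside -0.030. DUSP6, another ERK phosphatase, was called up in line 86 (0.60, adjusted P = 0.177). None of the 5 lists had a call in the comparison of all 6 overexpression-labelled libraries or in line 87.

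**Figure D4:**
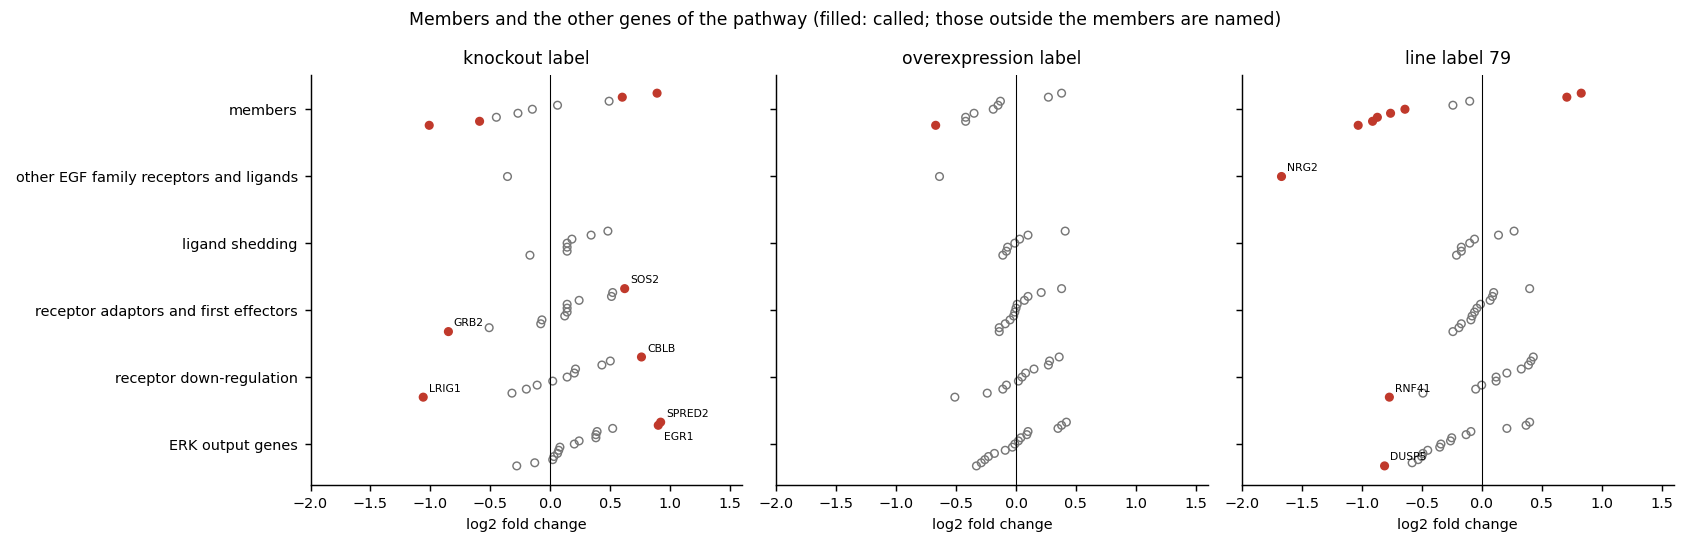
Log2 fold change (horizontal axes) of the members and of 5 lists of pathway genes for the knockout label, the overexpression label and line label 79, with each point 1 tested gene. Filled points were called: outside the members these were 6 genes for the knockout label, none for the overexpression label, and NRG2, RNF41 and DUSP5 for line 79.

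The genes whose pattern over the 12 libraries was closest to HBEGF, TGFA and BTC, the called members with the largest folds in the 2 label comparisons, were found by the root mean square difference of log2(TPM + 1), after centring on the controls of each arm, among 13792 genes tested in both arms. For HBEGF these were SYNPO (0.15), THBD (0.22) and NAPRT (0.23), beside a median of 0.63 over all genes. For TGFA they were PINK1, MT-TS2 and CDCP1 (0.18 each, median 0.54). For BTC they were ADPGK (0.11), SNORA22 (0.17) and KNSTRN (0.18), beside a median of 0.53. These genes were picked for the smallest differences, so lying below the median was fixed in advance.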

How the data were processed

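Per the labels and the study's methods, poly(A) RNA (labels) or ribosomal RNA-depleted RNA (methods) was sequenced, and the authors aligned reads to hg38 with Hisat2 and ran Stringtie. The authors deposited, for each gene and library, TPM, FPKM and coverage (a signal, mean aligned bases per position). No counts were held in the files used here, so the count test of the methods was not run. TPM carries no counting error, and precision came from the spread between libraries. Groups came from the treatment labels, and line labels from the titles.

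Genes that reached 1 TPM in 2 or more libraries of an arm were tested on log2(TPM + 1), by lmFit and eBayes (with trend) of limma 3.58.1 under R 4.3.3, with Benjamini-Hochberg adjustment over all genes tested. Calls needed an unadjusted P under 0.05 and 1.5-fold. The fit was tested on simulated data. Coverage and FPKM gave the aligned bases. Motifs and U12-type starts were searched with Python 3.11.15 and pandas 2.3.3 in RefSeq windows and hg38, and 56478 of 56558 gene identifiers shared with GENCODE overlapped in position. The rule for named genes took all 10 members, U11, the called genes of each list and the 3 genes most like each of 3 members. NRG2, ADAM10, ADAM17, RNF41, DUSP4, DUSP5, DUSP6, ETV4, ETV5, PIK3CA, MYC and marker genes were named after their values were seen. The members and lists were chosen with earlier results of these data known. The alternatives were FPKM, a pseudocount of 0.1, median ratio scaling, 2 other filters, no trend, adjusted P, a replicate block, the controls of both arms, the mean of each line, leaving out each library and, added after seeing the data, leaving out line 79.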

Additional observations from a re-analysis of the deposited data

Results flagged for a closer look

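The members whose levels differed between the 3 overexpression line labels were flagged by the F test of limma in the fit of 8 libraries. The adjusted P was 0.000826 for HBEGF and 0.0107 for TGFA, both highest in line 79. It was 0.00112 for EREG, 0.00625 for ERBB3, 0.0129 for NRG1 and 0.0134 for AREG, and these 4 were lowest in line 79 and highest in line 86. U11 was highest in line 87. It was at 0.18 and 0.41 TPM in line 79, within the range of the controls, but too low there to compare. The line label and the clone cannot be told apart. Dixon's test, which divides the gap at each end by the full range, flagged no single overexpression-labelled library for any member. Where a line differs, its 2 libraries lie close together and hide each other from this test. HBEGF in line 79 was at 131 and 129 TPM, and its ratio at the high end was only 0.033. The test therefore cannot decide whether a library stood apart.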

How the results depend on the processing

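Of 2 members called up with the knockout label, 1 was called with FPKM, with median ratio scaling and with the controls of both arms, and 1 to 3 with a library left out. Of 2 called down, 1 was called with adjusted P and 1 to 2 with a library left out. ERBB2 changed sign with the controls of both arms (-0.05), whose libraries differ in kind, and the cause was not tested. The overexpression label had 0 members up and 1 down. With the controls of both arms these were 1 (HBEGF, 0.62) and 0. The 1 down was 0 with FPKM, with a minimum of 1 TPM in every library and with adjusted P, and 0 to 1 with a library left out. Line label 87 had 1 call, and 0 with FPKM, with the stricter minimum and with adjusted P. BTC could not be tested with that minimum. In line label 79 between 5 and 7 of 9 members were called under every setting run. The replicate block gave 2 up and 2 down for the knockout label, 0 up and 1 down for the overexpression label, 7, 0 and 1 for lines 79, 86 and 87, and 6 differing between lines, so it changed no call. The block was the replicate number in the knockout arm, where deviations of same-numbered libraries correlated at 0.02 over genes, although MYC split by number. In the overexpression arm it was the series of library numbers, with correlations of 0.07 to 0.15 in 6 pairs, all positive but not all over 0.1, so neither was taken as a pairing of samples. Genes near 1 TPM (BTC, EGF) rest on few reads.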
